A study of Homo sapiens with 9 samples.

Results

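The protocadherin beta genes PCDHB2, PCDHB3, PCDHB4, PCDHB5, PCDHB6, PCDHB10, PCDHB11, PCDHB13, PCDHB14 and PCDHB15 were taken by name from a count table of 57820 genes, and all 10 were found in it. The table holds 9 Chrom-seq libraries from the established human kidney line HEK293T, of embryonic origin, in 3 groups of 3 replicates. Chrom-seq labels RNA near a chromatin mark: a reader domain carries SunTag epitopes, the epitopes recruit the peroxidase APEX2 through a single-chain antibody, and APEX2 attaches biotin-aniline to nearby RNA. In the CBX1 group the reader was the chromodomain of mouse CBX1, the part of this heterochromatin protein that recognizes H3K9me3. The CBX1_W42A group had this chromodomain with the substitution W42A, and in the Control group the epitopes had no reader. The labels of all 9 libraries, Control included, also hold the letters NLS, which they do not explain. All 3 groups were transiently transfected, with plasmids that drive the reader from a cytomegalovirus promoter and APEX2 from a chicken β-actin promoter, and were labeled 48 hours later, after 30 min in 500 μM biotin-aniline, by adding 1 mM H2O2 for 1 min. Streptavidin beads pulled down the labeled RNA, and its polyadenylated part was sequenced. The comparisons ask which of these RNAs were captured more with the reader of H3K9me3 than without a reader or with the changed reader.

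Clustered protocadherins are adhesion proteins of the cell surface that bind the same isoform on a neighbouring cell. Neurons use different combinations of them to tell their own processes from those of other cells. Each beta gene is a complete gene without introns and has its own promoter. In cells where a beta gene is silent, its chromatin often carries H3K9me3 and methylated DNA, and SETDB1 is the best known enzyme that places that mark over the cluster. A conserved promoter element that contains a CTCF site is shared by most genes of the cluster.

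All 10 genes lie on the plus strand of chromosome 5 in hg19, from the start of PCDHB2 at chr5:140474227-140476962 to the end of PCDHB15 at chr5:140625147-140627799. Their lengths add to 31.396 kb, and the annotation gives each of them as 1 exon without introns. The promoters of 8 of the 10 genes were in the RefSeq table of GRCh38.p14, which is another build than that of the counts, and PCDHB6 and PCDHB11 were not matched. The 9 letters GGTGGCGCT, searched on both strands and chosen after these promoters were read, occurred in 8 of 8 of them. The windows of 36 bases around this match are shown because they are the stretch of promoter that the members share, with the match in capitals and the rest of the window in lower case.
PCDHB2, chr5:141094535-141094570: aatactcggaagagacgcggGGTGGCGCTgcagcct
PCDHB3, chr5:141100384-141100419: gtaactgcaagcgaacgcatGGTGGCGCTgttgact
PCDHB4, chr5:141121714-141121749: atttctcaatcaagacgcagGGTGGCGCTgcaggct
PCDHB5, chr5:141135170-141135205: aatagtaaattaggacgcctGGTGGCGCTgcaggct
PCDHB10, chr5:141192290-141192325: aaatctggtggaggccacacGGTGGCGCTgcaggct
PCDHB13, chr5:141213856-141213891: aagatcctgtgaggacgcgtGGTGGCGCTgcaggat
PCDHB14, chr5:141223254-141223289: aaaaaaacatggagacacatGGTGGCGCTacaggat
PCDHB15, chr5:141245305-141245340: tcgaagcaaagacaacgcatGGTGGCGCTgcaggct

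Between the end of the match and the RefSeq start of the gene lay 7 bases (PCDHB5) to 75 bases (PCDHB4). Any pair of these 8 windows had 20 to 28 of 36 bases in common, with a median of 23.5 over 28 pairs. These numbers include the bases of the match, which are the same in every pair because the windows were placed on it. The same letters occurred in 13 of the 14 PCDHB promoters of the table, in 0 of the 38 PCDHA and PCDHG promoters and in 0.501% of all 35116 promoters of that length. PCDHB1 was the beta promoter without them. The shorter CGCT inside the match was in 14 of 14 PCDHB promoters, 37 of the 38 PCDHA and PCDHG promoters and 70.0% of all. The longer match was chosen from beta promoters. Its absence elsewhere therefore does not show that alpha and gamma promoters lack a shared element. A match is a description of the sequence, and binding at it was not measured here.

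The libraries held between 8379542 and 11082852 counts in all. Genes with a count numbered 21709 to 21876 in the Control libraries, 23289 to 23819 with CBX1 and 22649 to 23498 with CBX1_W42A. Mitochondrial RNA took 3.16% to 3.50% of the counts in Control, 4.36% to 4.70% with CBX1 and 4.2% to 4.39% with CBX1_W42A. These shares moved with the groups, and their part in the results for the PCDHB genes was not tested. All 5 markers fixed for HEK293T were present, with VIM the highest at 519 CPM (counts scaled to library size). Of 10 markers of other cell types in the table, 4 were at 0 in all 9 libraries, and their summed level was 38.8 to 50.8 CPM in Control, 42 to 45.4 with CBX1 and 51.1 to 60.0 CPM with CBX1_W42A.

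The PCDHB RNAs were rare in every library, with at most 16 counts for any gene. PCDHB2, at the upstream end of the 10, and PCDHB15, at the downstream end, gave the most counts. PCDHB2 had 5, 5 and 2 counts in Control replicates 1, 2 and 3, 9, 6 and 5 with CBX1_W42A, and 15, 16 and 3 with CBX1. Replicates 1 and 2 of CBX1 stood above every other library, while replicate 3 lay within the range of the Control. PCDHB15 had 1, 5 and 6 counts in Control, 7, 2 and 6 with CBX1_W42A, and 4, 11 and 14 with CBX1. Here it was replicate 1 of CBX1 that fell within the range of the other groups. The library in which CBX1 was low therefore differed between PCDHB2 and PCDHB15. Together these 2 genes took 24 of the 39 counts of the 10 genes in Control, 35 of 64 with CBX1_W42A and 63 of 140 with CBX1.

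PCDHB13, PCDHB11 and PCDHB14, which lie in the downstream part of the cluster, had intermediate counts. PCDHB13 had 1, 0 and 2 counts in Control, 3, 1 and 1 with CBX1_W42A, and 8, 6 and 3 with CBX1. In CPM, its 3 CBX1 libraries were above all 6 others. PCDHB11 had 1, 1 and 0 counts in Control, 6, 1 and 0 with CBX1_W42A, and 9, 2 and 5 with CBX1, so that CBX1 did not overlap Control but overlapped CBX1_W42A through replicate 1 of the latter. PCDHB14 had 1, 4 and 2 counts in Control, 5, 4 and 2 with CBX1_W42A, and 4, 2 and 5 with CBX1. For PCDHB14 the 3 groups overlapped throughout.

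The other 5 genes had at most 4 counts in any library. PCDHB3 was at 0 in all 6 Control and CBX1_W42A libraries and had 3, 4 and 2 counts with CBX1. PCDHB6 was at 0 in Control, had 1, 1 and 0 counts with CBX1_W42A, and 2, 3 and 4 with CBX1. PCDHB10 had 0, 1 and 0 counts in Control, 0 in the 3 CBX1_W42A libraries, and 2, 2 and 2 with CBX1. In these 3 genes every CBX1 library was above every library of the other groups, at counts where a few read pairs decide the order. PCDHB4 had 0 counts in Control, 1, 0 and 0 with CBX1_W42A, and 0, 2 and 2 with CBX1. PCDHB5 had 0, 2 and 0 counts in Control, 0, 1 and 2 with CBX1_W42A, and 1, 0 and 4 with CBX1. PCDHB4 and PCDHB5 overlapped between all groups.

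**Figure D1:**
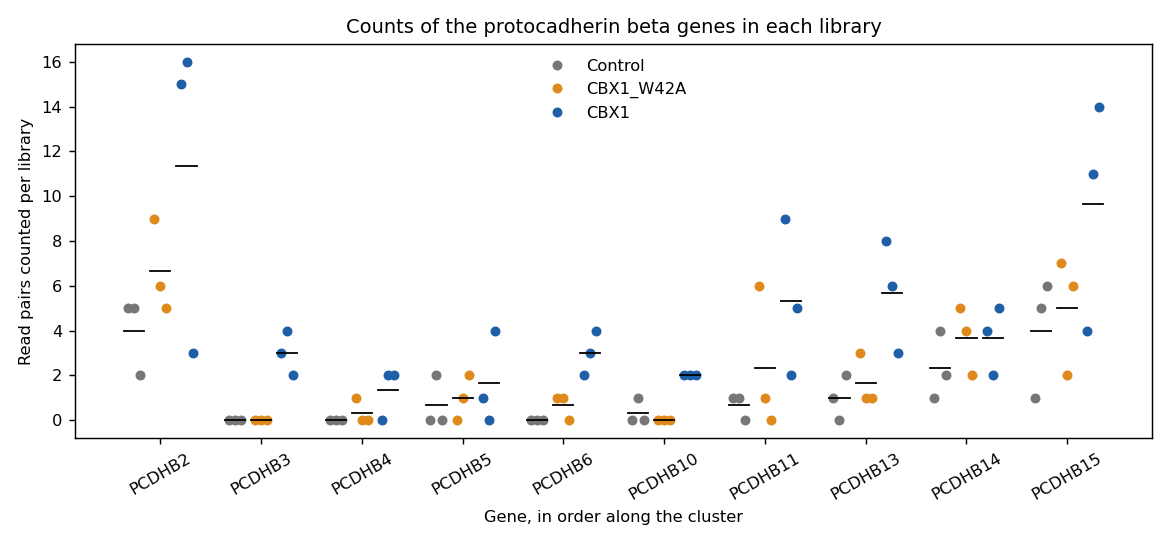
Counts of read pairs (y axis) of the 10 PCDHB genes in order along the cluster (x axis), with 1 point per library and a bar at the mean of each group of 3. PCDHB3, PCDHB6 and PCDHB10 have every CBX1 point above the points of the other groups, PCDHB13 has CBX1 and CBX1_W42A tied at 3 in 1 library each, and PCDHB2 has CBX1 points at 15, 16 and 3.

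Among the 10 members, those with the highest levels lay at both ends of their order. Other PCDHB genes lie between them and are not in this order. PCDHB8 and PCDHB16, between PCDHB6 and PCDHB10, had means of 0.549 and 0.798 CPM with CBX1, not scaled by length. PCDHB6 and PCDHB10 had 0.314 and 0.212 CPM. In CPM per kb of gene, the order with CBX1 was PCDHB2 (0.455 ± 0.303, SD, n = 3), PCDHB15 (0.379 ± 0.185), PCDHB13 (0.176 ± 0.0869), PCDHB11 (0.165 ± 0.115), PCDHB14 (0.131 ± 0.0482), PCDHB3 (0.102 ± 0.0395), PCDHB6 (0.0985 ± 0.0263), PCDHB10 (0.0649 ± 0.00507), PCDHB5 (0.0571 ± 0.0685) and PCDHB4 (0.0382 ± 0.0333). The ranges of mean ± SD overlapped between all neighbours of this order except PCDHB6 and PCDHB10. In Control the level per kb was highest for PCDHB15 (0.175 ± 0.123, SD, n = 3), PCDHB2 (0.158 ± 0.0615) and PCDHB14 (0.0902 ± 0.0609), and with CBX1_W42A for PCDHB2 (0.241 ± 0.0537), PCDHB15 (0.186 ± 0.0926) and PCDHB14 (0.124 ± 0.0450). All neighbours overlapped in these 2 groups. PCDHB14 thus ranked 3 in level without the reader and with the changed reader, and 5 with CBX1. Over the 10 genes, Spearman's rho between position and level per kb was 0.46 in Control, 0.28 with CBX1 and 0.33 with CBX1_W42A, which describes 10 genes of the same libraries. With CBX1 and with CBX1_W42A, the 5 members from PCDHB3, at 6.0 kb from the start of PCDHB2, to PCDHB10, at 97.7 kb, had the lowest levels of the 10. In Control, PCDHB5 ranked above PCDHB11, by less than their spread.

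**Figure D2:**
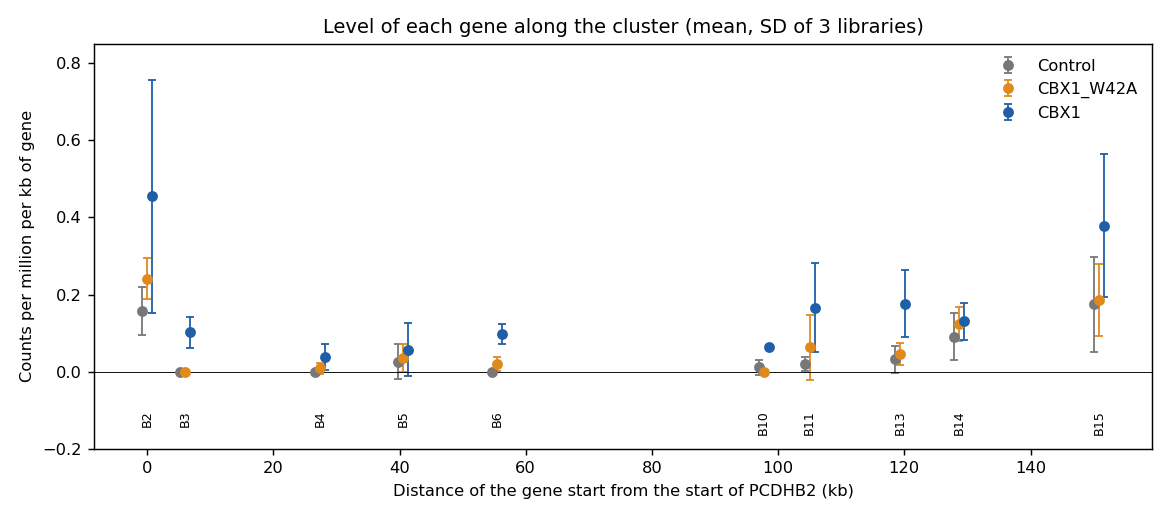
Level of each gene in CPM per kb (y axis) against the distance of its start from that of PCDHB2 in kb (x axis), with the mean and SD of 3 libraries per group, groups slightly offset. Of the genes shown, the highest CBX1 levels are at the ends, 0.455 for PCDHB2 and 0.379 for PCDHB15, and the lowest, 0.0382 for PCDHB4, lies at 27.4 kb.

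Summed over the 10 genes, the Control libraries had 9, 18 and 12 counts, the CBX1_W42A libraries 32, 16 and 16, and the CBX1 libraries 48, 48 and 44. The CBX1 libraries were above all others and close to each other. In CPM the sums were 1.46 ± 0.579 in Control, 2.1 ± 0.706 with CBX1_W42A and 4.97 ± 0.622 with CBX1 (SD, n = 3). Counts above 0 were seen for 4 to 6 of the 10 genes in a Control library, 5 to 7 with CBX1_W42A, and 9 or 10 with CBX1. The summed level was 3.46 times as high with CBX1 as in Control (95% exact interval 2.41 to 5.07), 2.31 times as high with CBX1 as with CBX1_W42A (1.71 to 3.16) and 1.5 times as high with CBX1_W42A as in Control (0.991 to 2.29). These intervals cover counting error only, and no test was run on the sum because its members were chosen with earlier results known. Without PCDHB2 the ratios were 3.79 (2.46 to 6.01), 2.54 (1.77 to 3.70) and 1.49 (0.902 to 2.50). Non-overlap of this kind was frequent: of genes whose counts summed to within 2 times of the members' total, 31.0% had every CBX1 library above every Control library, 14.1% had every CBX1 library above every CBX1_W42A library, and 21.2% had every CBX1_W42A library above every Control library.

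**Figure D3:**
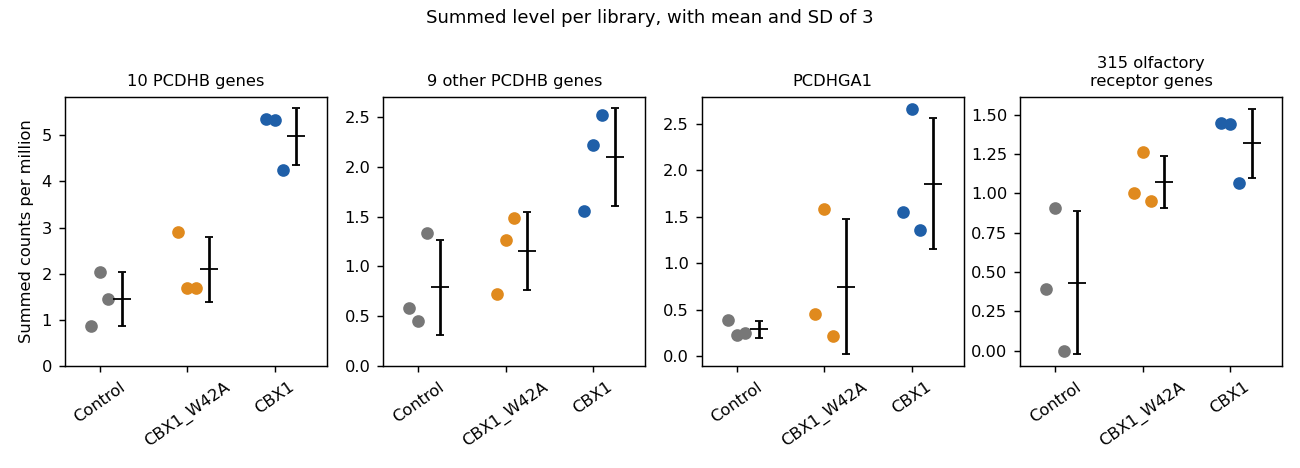
Summed CPM (y axis, a scale of its own in each panel) per library in the 3 groups (x axis), for the 10 PCDHB genes, the 9 other PCDHB genes of the cluster, PCDHGA1 and 315 olfactory receptor genes, with points for libraries and the mean and SD of 3 in black. CBX1 lies between 4.25 and 5.33 for the 10 PCDHB genes, above both other groups, and the olfactory receptor genes have 1.06 to 1.44 with CBX1 against 0 to 0.904 in Control.

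In the comparison of CBX1 with Control, all 10 genes had a higher mean with CBX1, and none passed the test for a change. Only 3 of them reached the filter of more than 18 counts over the 6 libraries, PCDHB2, PCDHB13 and PCDHB15. Calls required a log2 fold change of 0.75 or more together with an adjusted p under 0.05, and of all 18837 genes tested 7.06% were called higher with CBX1. The log2 fold change of PCDHB13 was 2.35 ± 0.92 (SE, 95% interval 0.42 to 4.28), with a Benjamini-Hochberg adjusted p of 0.0793 by the quasi-likelihood test of edgeR. That of PCDHB2 was 1.48 ± 0.67 (0.06 to 2.90, edgeR adjusted p = 0.130) and that of PCDHB15 was 1.19 ± 0.68 (−0.24 to 2.61, edgeR adjusted p = 0.23). Their median was 1.48, beside 0.03 over all genes tested. These 3 genes passed the filter mainly through their CBX1 counts, which favours a high value. Without a filter, the median was 2.27 over the 10 genes and 0.80 over genes in the members' range of summed counts. Before adjustment, PCDHB13 and PCDHB2 were under 0.05 with edgeR, and PCDHB13 alone with DESeq2, which also called 0 members but gave PCDHB13 no adjusted p. Without CBX1 replicate 3, the library with 3 counts for PCDHB2, that gene was called (log2 fold change 1.97, edgeR adjusted p = 0.0427). With every gene of at least 1 count tested, 10 members entered the fit, 0 were called, beside 5.28% of 28215 genes called higher. At an unadjusted p below 0.05, 5 of the 10 were higher with CBX1, beside 14.3% of all genes and 11.6% of those with summed counts in the members' range.

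The remaining 7 genes can be given as ratios of summed counts. PCDHB3 and PCDHB6, at 0 in Control, each had a ratio of 2.89 with CBX1 (9 against 0 counts), with Control set to a floor of 3 counts over the group. PCDHB4 had 1.29 on the same floor (4 against 0 counts). No interval was formed for these floor ratios, so they leave out counting error and do not show a least difference. PCDHB11 was 7.72 times as high (16 against 2 counts, 95% exact interval 1.81 to 69.2) and PCDHB10 5.79 times (6 against 1 count, 0.702 to 266). PCDHB5 had a ratio of 2.41 (0.395 to 25.3) and PCDHB14 of 1.52 (0.537 to 4.61). For PCDHB10, PCDHB5 and PCDHB14 the interval includes a ratio of 1, so a difference was not detectable at this depth. In 5 of the 10 genes, PCDHB3, PCDHB6, PCDHB10, PCDHB11 and PCDHB13, the CBX1 libraries were all above the Control libraries, beside 14.6% of the 7170 genes with summed counts in the range of the members (4 to 46). Of those genes, 73.0% had a higher mean with CBX1, and their median log2 ratio was 0.68, against 1.49 for the 10 genes, with genes at 0 set to the floor in both.

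**Figure D4:**
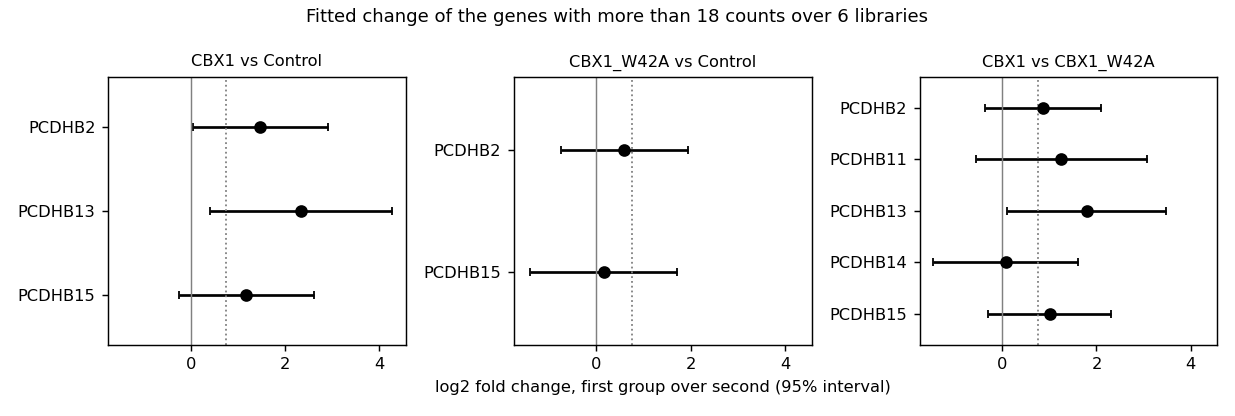
Log2 fold change with its 95% interval (x axis) of each gene that reached more than 18 counts over the 6 libraries compared (y axis), in the 3 comparisons. The solid line is at 0 and the dotted line at the threshold of 0.75. The intervals of PCDHB2 and PCDHB13 are above 0 in CBX1 against Control, and that of PCDHB13 in CBX1 against CBX1_W42A, and no adjusted p is below 0.05.

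Between CBX1 and CBX1_W42A, whose readers differ by W42A, the mean was again higher with CBX1 in all 10 genes. Of the 5 genes that reached the filter 0 were called, beside 0.795% of all 19360 genes called higher. The CBX1_W42A samples were registered under numbers apart from those of both other groups. Whether they were made at another time is not stated, and its part in the comparisons with CBX1_W42A was not tested. PCDHB13 had the highest value, a log2 fold change of 1.79 ± 0.82 (SE, 95% interval 0.10 to 3.48, edgeR adjusted p = 0.268, under 0.05 before adjustment). PCDHB11 followed with 1.25 ± 0.88 (−0.57 to 3.07), PCDHB15 with 1.00 ± 0.63 (−0.30 to 2.30) and PCDHB2 with 0.86 ± 0.60 (−0.38 to 2.1), at adjusted p in edgeR of 0.507, 0.449 and 0.5. PCDHB11 moved most with single libraries, from 0.61 without CBX1 replicate 1 to 3.14 without CBX1_W42A replicate 1 (edgeR adjusted p = 0.216), where it stood above PCDHB13 (2.39), and it was 0.72 without CBX1_W42A replicate 3. PCDHB14 had 0.07 ± 0.74 (−1.46 to 1.61, edgeR adjusted p = 0.976), an interval that holds changes of either sign past the threshold. DESeq2 gave these 5 genes no adjusted p, and 0 of them had an unadjusted p below 0.05. Among the genes under the filter, PCDHB3 had a ratio of 3.17 (9 against 0 counts) and PCDHB10 of 2.11 (6 against 0 counts). Both were taken against a floor of 3 counts, with no interval formed. PCDHB6 was 4.75 times as high with CBX1 (9 against 2 counts, 95% exact interval 0.983 to 45.2). PCDHB4 had a ratio of 4.22 (4 against 1 count, 0.418 to 208) and PCDHB5 of 1.76 (5 against 3 counts, 0.342 to 11.3), and these 3 intervals include 1. With all genes of at least 1 count tested, 0 of 10 members were called, beside 0.845% of genes called higher. At an unadjusted p below 0.05 in edgeR, 2 of the 10 were higher with CBX1, beside 6.51% of all genes and 4.37% of those in the members' range of summed counts. In 4 of the 10 genes, PCDHB3, PCDHB6, PCDHB10 and PCDHB13, every CBX1 library was above every CBX1_W42A library in CPM, beside 9.35% of the 7019 genes in the members' range of summed counts. The median log2 ratio of summed counts was 1.17 over the 10 genes and 0.22 over that range, where 57.7% of genes had a higher mean with CBX1.

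Between CBX1_W42A and Control, 8 of the 10 genes had a higher mean with CBX1_W42A, beside 65.3% of genes in the members' range of summed counts. PCDHB10 was lower (0 against 1 count) and PCDHB3 was at 0 in both. The 2 genes that reached the filter were not called, beside 0.974% of all 18680 genes called higher. The log2 fold change of PCDHB2 was 0.59 ± 0.64 (SE, 95% interval −0.75 to 1.93, edgeR adjusted p = 0.653) and that of PCDHB15 was 0.15 ± 0.75 (−1.41 to 1.71, edgeR adjusted p = 0.937). Neither had an unadjusted p below 0.05 in edgeR or DESeq2, which gave them no adjusted p. With all genes of at least 1 count tested, 0 of 9 members were called, beside 1.21% of genes called higher. At an unadjusted p below 0.05 in edgeR, 0 of the 9 were higher with CBX1_W42A, beside 7.88% of all genes and 3.14% of those in the members' range of summed counts. As ratios of summed counts, PCDHB11 was at 3.2 (7 against 2 counts, 95% exact interval 0.609 to 31.5), PCDHB13 at 1.52 (5 against 3, 0.296 to 9.80) and PCDHB14 at 1.44 (11 against 7, 0.508 to 4.37), with intervals that include 1. PCDHB3, PCDHB4, PCDHB5, PCDHB6 and PCDHB10 had at most 3 counts in either group, and no ratio was formed. In 0 of the 10 genes was every CBX1_W42A library above every Control library, beside 5.86% of the 10669 genes in the range of the members. The median log2 ratio of the 5 genes with more than 3 counts in a group was 0.61, and that of genes in the same range was also 0.61. These 3 comparisons share groups with each other, so their values are given side by side and are not separate observations.

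The study calls its replicates independent, and neither it nor the labels say whether they were separate cultures, so the p-values measure the spread between these libraries, which may be technical. The counts are of captured RNA in bulk cells, where fewer cells that make an RNA and less RNA per cell cannot be told apart. Beta genes resemble each other, and 14.25% to 34.0% of the stretches of 50 bases in the 10 genes, and 3.82% to 21.5% of the stretches of 100 bases, recur elsewhere in the clustered protocadherin locus of 726.7 kb. PCDHB13, with the largest share, PCDHB10 and PCDHB2 are the most affected, and reads from such stretches could be counted for another copy or for none, so that the values of single genes are uncertain. No other gene of the same strand overlaps the 10 genes, and only PCDHB3 is overlapped on the opposite strand, by AC005754.7.

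Olfactory receptor genes, which are compact genes used by neurons of the nose, give a reference level for genes that kidney cells rarely use. The 315 olfactory receptor genes shorter than 2000 bases and free of other genes on their strand, a set chosen after the data were seen, had 4, 8 and 0 counts in Control, 11, 12 and 9 with CBX1_W42A, and 13, 13 and 11 with CBX1. Their CBX1 libraries were above all Control libraries too, and overlapped those of CBX1_W42A. These sums rest on few of the 315 genes. Those with a count numbered 4, 6 and 0 in Control, 5, 5 and 3 with CBX1_W42A, and 3, 5 and 3 with CBX1. Per kb, the 10 PCDHB genes were 34.8 times as high as the olfactory receptor set in Control, 20.2 times with CBX1_W42A and 38.9 times with CBX1. The PCDHB counts therefore lay well above the level of this set in each group. Among 952 protein-coding genes that the annotation gives without introns, 293 were tested in CBX1 against Control, of which 8 were called higher and 2 lower with CBX1, with a median log2 fold change of −0.03.

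The 9 other beta genes and pseudogenes in the table are PCDHB1, PCDHB7, PCDHB8, PCDHB9, PCDHB12, PCDHB16, PCDHB17, PCDHB18 and PCDHB19P. Their sums were 6, 4 and 11 counts in Control, 8, 12 and 14 with CBX1_W42A, and 14, 20 and 26 with CBX1. The summed level was 2.76 times as high with CBX1 as in Control (95% exact interval 1.65 to 4.77). PCDHB16, the most abundant, had 1, 2 and 5 counts in Control, 1, 5 and 4 with CBX1_W42A, and 5, 7 and 11 with CBX1 (log2 fold change 1.43 ± 0.71 against Control, edgeR adjusted p = 0.165). PCDHB8 had 2, 2 and 5 counts in Control, 3, 1 and 0 with CBX1_W42A, and 3, 4 and 9 with CBX1 (log2 fold change 0.75 ± 0.73 against Control, edgeR adjusted p = 0.496). PCDHB18, a pseudogene, had its highest counts with CBX1_W42A, with 0, 0 and 1 counts in Control, 1, 4 and 6 with CBX1_W42A, and 1, 2 and 0 with CBX1. PCDHB1 was at 0 in all 9 libraries, PCDHB7 had 1 count in 1 CBX1 library, and PCDHB17 had 1, 0 and 2 counts with CBX1 and 0 elsewhere. PCDHB9 had 3, 0 and 0 counts in Control, 3, 0 and 1 with CBX1_W42A and 3, 3 and 2 with CBX1, PCDHB12 had 4 counts in all with CBX1 and 3 with CBX1_W42A, and PCDHB19P had 2 in each of these groups. Of the 9, PCDHB8 and PCDHB16 reached the filter in both comparisons with CBX1 and were not called, and 0 reached it in CBX1_W42A against Control.

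In the neighbouring clusters, PCDHGA1 was the single gene that passed the test. PCDHGA1, the first gene of the gamma cluster, spans 182.29 kb that includes the introns and the shared exons of that cluster, unlike a beta gene. The other gamma genes in the table had no counts. Reads from stretches that they share with PCDHGA1, the shared exons among them, were probably counted for no gene. PCDHGA1 had 4, 2 and 2 counts in Control, 5, 15 and 2 with CBX1_W42A, and 14, 24 and 14 with CBX1. It rose with CBX1 against Control, by a log2 fold change of 2.64 ± 0.56 (SE, edgeR adjusted p = 0.00404), and passed in neither other comparison (1.31 ± 0.78 for CBX1_W42A against Control, edgeR adjusted p = 0.373, and 1.30 ± 0.55 for CBX1 against CBX1_W42A, edgeR adjusted p = 0.229). Without single libraries, the change with CBX1 against Control was between 2.29 and 2.92. Without CBX1_W42A replicate 2, the library with 15 counts, the others were 0.21 for CBX1_W42A against Control (edgeR adjusted p = 0.920) and 2.41 for CBX1 against CBX1_W42A (edgeR adjusted p = 0.0522), and over all single libraries they ran from 0.21 to 1.74 and from 0.89 to 2.41. It was the only tested gene of 22 listed PCDHG genes in the table. The 15 PCDHA genes had 5 counts in all with CBX1, 3 in Control and 1 with CBX1_W42A, and none was tested. Genes nested in another gene of their strand have no counts in this table (0 of 7910 such genes had any), so most alpha and gamma variable exons could not be read. Between the beta and gamma clusters, TAF7, a subunit of the general transcription factor TFIID, was abundant, with 1366, 1241 and 1065 counts in Control, 1389, 1202 and 904 with CBX1_W42A, and 953, 1174 and 1108 with CBX1. Its log2 fold change was −0.20 ± 0.10 with CBX1 against Control (edgeR adjusted p = 0.149). SLC25A2, a mitochondrial carrier gene beside it, had at most 1 count in a library.

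Of 19 genes for factors that act on the protocadherin clusters, all were tested and 0 were called in any comparison. Their median log2 fold change was −0.11 for CBX1 against Control. DNMT1, the maintenance DNA methyltransferase and the most abundant of them, had −0.21 ± 0.09 (edgeR adjusted p = 0.0948). An adjusted p under 0.05 without the fold threshold was reached by 6 of the 19 in CBX1 against Control, 3 in CBX1 against CBX1_W42A and 1 in CBX1_W42A against Control. The share of all genes under this cut is not given here, so these counts are not a result about the factors as a set. ATF7IP, the partner of SETDB1, had log2 fold changes of 0.52 ± 0.09 against Control (edgeR adjusted p = 0.00125) and 0.73 ± 0.11 against CBX1_W42A (edgeR adjusted p = 0.000733), and the latter passed both thresholds with library size alone (0.77), without CBX1 replicate 2 (0.76) and without CBX1_W42A replicate 2 (0.81). ZNF274, a zinc finger protein that recruits SETDB1, had 0.55 ± 0.11 against Control (edgeR adjusted p = 0.00351) and 0.54 ± 0.11 against CBX1_W42A (edgeR adjusted p = 0.00894). SETDB1 had 0.16 ± 0.13 against Control (edgeR adjusted p = 0.390) and 0.47 ± 0.11 against CBX1_W42A (edgeR adjusted p = 0.0327). RAD21, a cohesin subunit, had −0.51 ± 0.09 against Control (edgeR adjusted p = 0.00114) and −0.40 ± 0.10 for CBX1_W42A against Control (edgeR adjusted p = 0.0469). NIPBL, the cohesin loader, had −0.39 ± 0.09 with CBX1 against Control (edgeR adjusted p = 0.00617), the cohesin subunit STAG2 −0.37 ± 0.09 (edgeR adjusted p = 0.00691) and LRIF1 0.32 ± 0.10 (edgeR adjusted p = 0.0417).

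Outside the clusters, 11 of 12 listed protocadherins were tested in CBX1 against Control and 0 were called, with a median log2 fold change of −0.08. PCDH7, the most abundant, had 0.16 ± 0.10 (edgeR adjusted p = 0.292). PCDH1, an adhesion protein of epithelia, was the exception in another comparison. It had 158, 91 and 85 counts in Control, 141, 167 and 172 with CBX1_W42A, and 75, 91 and 89 with CBX1, and was lower with CBX1 than with CBX1_W42A (log2 fold change −0.84 ± 0.18, edgeR adjusted p = 0.0135). That call was lost without CBX1 replicate 1 (−0.79, edgeR adjusted p = 0.0787), without CBX1 replicate 3 (−0.81, edgeR adjusted p = 0.0713) and without CBX1_W42A replicate 3 (−0.75, edgeR adjusted p = 0.0645). Of 19 classical cadherins, 15 were tested and 1, CDH10, was called higher with CBX1 than in Control. CDH10, a cadherin of the brain, had 6, 3 and 3 counts in Control, 15, 5 and 12 with CBX1_W42A, and 14, 25 and 19 with CBX1 (log2 fold change 2.22 ± 0.50, edgeR adjusted p = 0.00551). The most abundant cadherin, CDH2, had −0.15 ± 0.09 (edgeR adjusted p = 0.261). The 15 genes for intracellular partners of protocadherins gave 0 calls in CBX1 against Control, with a median of −0.19. PTK2, the focal adhesion kinase and the most abundant of them, had −0.22 ± 0.09 (edgeR adjusted p = 0.100). Among the 5 markers of HEK293T tested, 0 were called, and of the 5 markers of other cell types tested, CHGA was called lower with CBX1 than with CBX1_W42A (log2 fold change −1.21, edgeR adjusted p = 0.00546).

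By Pearson's correlation with the summed PCDHB level over the 9 libraries, the 5 most alike of 12508 protein-coding genes outside the locus were C10orf11 (r = 0.976), AC137932.1 (r = 0.969), ESRRB (r = 0.965), NTNG2 (r = 0.964) and DNASE1 (r = 0.962). They lie on chromosomes 10, 16, 14, 9 and 16. These were picked as the highest of many, and the 9 libraries share 3 groups, so the values are a description. C10orf11 had 1.27, 2.83 and 2.18 CPM in Control, 3.55, 2.63 and 2.75 with CBX1_W42A, and 5.22, 4.66 and 4.35 with CBX1. ESRRB, an orphan nuclear receptor, was at 11.1 to 13.8 CPM in Control, 11.6 to 13.7 with CBX1_W42A and 15.3 to 16.9 with CBX1. Both had every CBX1 library above all others, as did the summed PCDHB genes.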

How the data were processed

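Chrom-seq RNA was counted per gene in 9 HEK293T libraries. According to the methods and processing notes, the authors trimmed reads with fastp (0.23.1), aligned them to hg19 with HISAT2 (2.1.0) and counted them with featureCounts (2.0.1) on the GENCODE v19 annotation. They deposited raw whole-number counts without normalization. The strand setting of the counting is not given in the sources used here. In the counts, 0 of 7910 genes inside another gene of their strand had any, while 3771 of 9345 genes inside a gene of the opposite strand did. Listed lengths equal gene spans.

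Groups came from the sample labels, with 0 unused sample columns. The members and gene lists were chosen with earlier results of these data known. CPM used library sizes scaled by TMM factors over all 9 libraries. For each pair of groups, 6 libraries were tested with edgeR (4.0.16) in R (4.3.3), quasi-likelihood, TMM, genes with counts above 18 in sum, Benjamini-Hochberg adjustment. Calls needed a log2 fold change of 0.75 or more together with an adjusted p under 0.05. The threshold and filter follow the paper. A gene at 0 was set to a floor of 3 counts over the group. Named were the members, the other PCDHB genes, TAF7, SLC25A2, the called and most abundant genes of each list, and the 5 genes most alike. Factors below the fold threshold (ATF7IP, ZNF274, SETDB1, RAD21, NIPBL, STAG2, LRIF1), PCDHB genes' repeat shares and the olfactory set were picked after the values were seen. Alternatives were DESeq2 (1.42.0), RLE factors, library size alone, no filter, filterByExpr, all 9 libraries in one fit, the replicate block and leaving out each library. Replicates differed by more than sampling noise (chi-square per degree of freedom 4.95 to 12.4). The scripts were tested on simulated data, with changes placed only in genes of higher mean count than any member. Recovery at the members' counts was not tested. Exact intervals of count ratios cover counting error only, while those of log2 fold changes come from the edgeR fit and include the spread between libraries.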

Additional observations from a re-analysis of the deposited data

Results flagged for a closer look

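PCDH1, a protocadherin outside the clusters, differed between the readers: its log2 fold change of CBX1 against CBX1_W42A was −0.844 (edgeR adjusted p = 0.0135), with CBX1 on the lower side of Control (−0.40, edgeR adjusted p = 0.146) and CBX1_W42A on the higher side (0.42, edgeR adjusted p = 0.229). It was picked up because the effects of the 2 readers against the same Control differ by the direct comparison between them.

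CHGA, a secretory granule protein of neuroendocrine cells, was picked up in the same way, with a log2 fold change of CBX1 against CBX1_W42A of −1.206 (edgeR adjusted p = 0.00546), of −0.60 for CBX1 against Control (edgeR adjusted p = 0.0748) and of 0.58 for CBX1_W42A against Control (edgeR adjusted p = 0.171).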

How the results depend on the processing

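Of 120 refits of member log2 fold changes, 113 kept their direction and side of the threshold. Those of PCDHB15 in CBX1_W42A against Control turned to −0.355 without Control replicate 1, −0.0744 without CBX1_W42A replicate 1 and −0.0307 without CBX1_W42A replicate 3, and the highest without 1 library was 0.63. Those of PCDHB14 in CBX1 against CBX1_W42A turned to −0.0293 without CBX1 replicate 1, −0.132 without CBX1 replicate 3 and −0.180 without CBX1_W42A replicate 3, and the highest was 0.335. Of 333 refits of the other named genes, 327 kept direction and side, 3 lost the call of PCDH1 and 3 added a call of ATF7IP. The calls of members in CBX1 against Control ran from 0 to 1 when single libraries were left out. filterByExpr left 0 members. With no low-count filter the median log2 fold change of members was 2.27 for CBX1 against Control and 1.5 for CBX1 against CBX1_W42A, since more members enter. Without single libraries these medians were 1.12 to 1.97 and 0.613 to 1.35. The ratio of mean summed CPM was 3.41, 1.44 and 2.37 and ran over 2.85 to 4.26, 1.16 to 1.80 and 2.16 to 2.94 without single libraries, settings added after the data were seen.

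Counts over all genes moved more. Against Control, CBX1 had 1330 higher and 64 lower, and library size alone, which shifted the median of all genes to 0.116, gave 31 lower. CBX1_W42A had 182 higher and 4 lower against Control, with 338 and 9 without a filter, 282 higher with all 9 libraries in one fit and 1 lower with library size alone. CBX1 had 154 higher and 39 lower than CBX1_W42A, and 244 and 70 without a filter. Without single libraries, the ranges were 975 to 1219 higher and 44 to 77 lower for CBX1 against Control, 36 to 141 and 0 to 10 for CBX1_W42A against Control, and 67 to 184 and 17 to 49 for CBX1 against CBX1_W42A. The cause was not tested.

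With the replicate number as a block, 0 members were called in all comparisons, and CBX1 had 250 higher and 66 lower than CBX1_W42A. Same-numbered libraries did not all deviate together (correlations −0.22 to 0.16). Between CBX1 and CBX1_W42A these correlations were positive (0.158, 0.079 and 0.114), beside means of −0.074, −0.050 and −0.051 with other-numbered libraries. In both comparisons with Control their signs were mixed. Whether same-numbered libraries were prepared together was not tested. At 0 to 16 counts per library, depth limits each member. Changes smaller than about the distance from an estimate to the end of its interval could not be told from 0. Some larger ones, as for PCDHB13, did not pass after adjustment.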
